A study of Homo sapiens with 7 samples.

Results

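The hypoxia-inducible factors and a set of their targets were followed in Huh-7 cells after knockdown of IGF2BP1. The members were chosen by name, with earlier results of these data known. They comprise 10 of the 58174 genes of the expression table. These are the factor subunits HIF1A and EPAS1, the oxygen sensors EGLN1 and EGLN3, and the targets VEGFA, ADM, CA9, BNIP3, ANKRD37 and NDRG1. Huh-7 is a cell line derived from a human hepatocellular carcinoma, and IGF2BP1, also called IMP1, is an RNA-binding protein that stabilises many of the transcripts it binds. Total RNA was sequenced from cells collected 72 h after they received either non-targeting control siRNA (siC, 3 libraries) or an siRNA pool directed to IGF2BP1 (siImp1, 4 libraries). Each group was thus 1 line in transient transfection, and a transfected culture without siRNA was not analysed here. The labels name no oxygen level and no hypoxic sample, so the comparison is of knockdown against control and not of low against normal oxygen.

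A hypoxia-inducible factor is a pair of proteins, an oxygen-regulated alpha subunit (encoded by HIF1A, EPAS1 or HIF3A) and a constant beta subunit (ARNT). With oxygen at hand, the prolyl hydroxylases of the EGLN family mark the alpha subunit, the VHL ubiquitin ligase binds the mark, and the protein is degraded. In low oxygen the alpha subunit persists, pairs with ARNT and binds a short DNA core, the hypoxia response element, near genes for glucose use, blood vessel growth, red cell formation and mitochondrial turnover. The main switch therefore acts on the protein, which RNA sequencing does not read. The transcripts of the targets are its usual readout, and the liver is a known site of HIF-driven hormone and metabolic gene expression.

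Values are FPKM, fragments scaled to gene length and library size. Levels between genes therefore depend on the deposited gene length, and the sources used here do not say which exons it spans. In siC replicate 1, VEGFA had more reads than EGLN1 (2659 against 2335) at a lower FPKM, with lengths of 14431 and 7265 bases. Differences are siImp1 minus siC on the log2(FPKM + 0.1) scale, from limma with Benjamini-Hochberg adjustment over the 14839 genes whose mean reached 1 FPKM, and a gene is called at an adjusted p under 0.01. Libraries held from 12826550 to 33212205 reads on genes. IGF2BP1 itself was at 80.4 to 84.4 FPKM in siC and at 15.3 to 16.6 FPKM in siImp1, a log2 difference of -2.37 (adjusted p = 1.16e-05), and SRF, the transcript on which the study centred, differed by -1.04 (adjusted p = 0.000536). The siC replicate 3 stood apart: it correlated with the other siC libraries at Pearson's r of 0.916 and 0.929, against 0.971 between those. The members, and part of the other results, are given with and without that library. The hepatocyte markers on the list were all above 1 FPKM (7 of 7, summed level 5627 to 6888 FPKM in siC and 6064 to 6233 FPKM in siImp1). None of these 7 markers was called over all libraries (median log2 difference -0.19, limma). Before adjustment at p under 0.05, 3 of them were lower and none higher, against 14.8% and 11.0% of all tested genes. Without siC replicate 3, TTR and FGB were called lower, in a fit that called 990 of all 14839 tested genes lower. The part of these marker differences in the results below was not tested. Of 8 markers of other cell types only PECAM1 reached 1 FPKM, and the others stayed at or below 0.074 FPKM. In bulk RNA, fewer cells of a type and less RNA per cell cannot be told apart.

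At baseline the members covered a wide range. In siC the order of mean levels was HIF1A (49.3 FPKM), EPAS1 (37.2), BNIP3 (28.6), NDRG1 (16.8), EGLN1 (15.2), VEGFA (7.69), ADM (4.06), ANKRD37 (0.481), EGLN3 (0.185) and CA9 (0.133). The siC ranges of neighbours in this order overlapped for EPAS1 and BNIP3, for NDRG1 and EGLN1, and for EGLN3 and CA9. Between the other neighbours they did not overlap. This order rests on the gene lengths used: in siC replicate 1, EPAS1 had more reads than HIF1A (6418 against 4606). The plot of levels by library shows 7 members well above 1 FPKM and 3, ANKRD37, EGLN3 and CA9, with hardly any transcript.

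**Figure D1:**
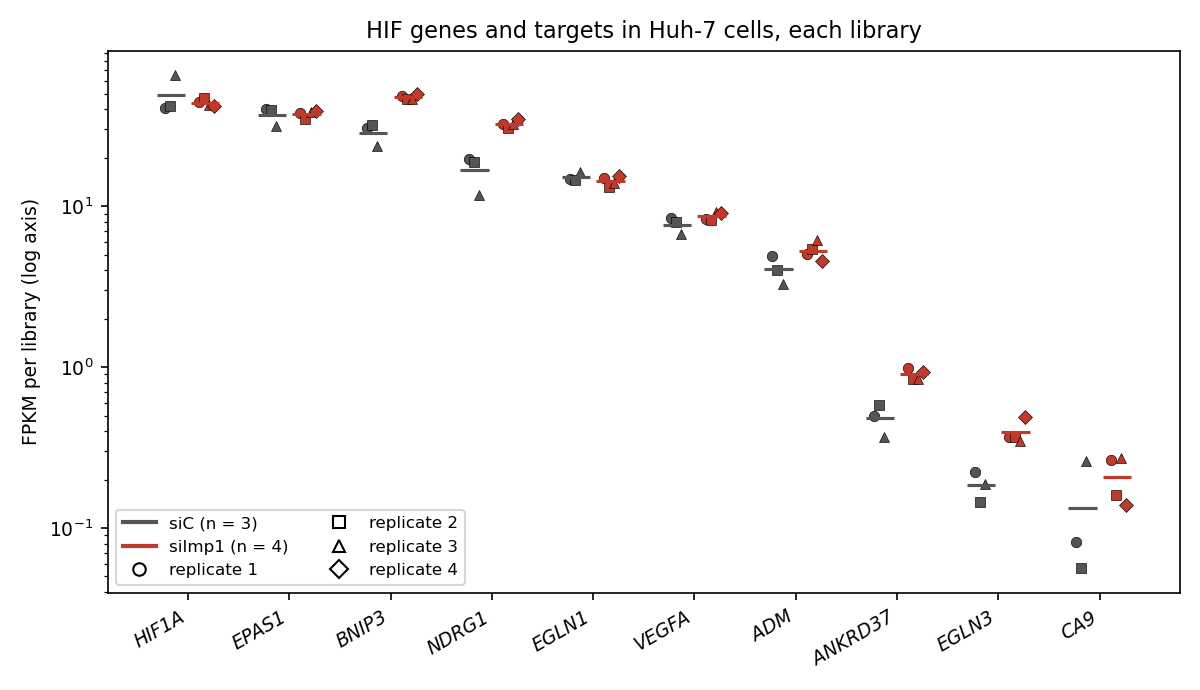
Level of each member in each library, in FPKM on a log axis, with siC in grey (3 libraries), siImp1 in red (4 libraries), a marker shape per replicate number and a horizontal bar at the group mean. The siImp1 points lie above all siC points for BNIP3, NDRG1, ANKRD37 and EGLN3, while HIF1A, EPAS1 and EGLN1 overlap between the groups.

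The oxygen-regulated alpha subunits did not pass the test. HIF1A, which encodes the most widely expressed alpha subunit, was at 41.0, 42.0 and 65.0 FPKM in the siC replicates 1 to 3 and at 44.7, 47.0, 42.6 and 41.8 FPKM in the siImp1 replicates 1 to 4. The groups overlapped, and the siC replicate 3 lay above every other library. The log2 difference was -0.13 (95% interval -0.52 to 0.25, adjusted p = 0.682, limma), and without siC replicate 3 it was 0.086 (adjusted p = 0.313), so its direction rested on that library.

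EPAS1, which encodes the alpha subunit tied most closely to erythropoietin control, was at 40.3, 39.6 and 31.6 FPKM in siC and at 37.9, 34.8, 38.5 and 38.8 FPKM in siImp1. Here the siC replicate 3 was the lowest library, and the groups overlapped. The log2 difference was 0.020 (95% interval -0.21 to 0.25, adjusted p = 0.929, limma) and -0.091 without siC replicate 3 (adjusted p = 0.273). The intervals leave room for changes of either sign up to their bounds, and a p that misses the threshold does not show equal levels. The ratio of HIF1A to EPAS1 was 1.02 and 1.06 in the siC replicates 1 and 2, 2.05 in siC replicate 3, and 1.08 to 1.35 in siImp1. The ratio set siC replicate 3 apart from all other libraries, since it was the highest for HIF1A and the lowest for EPAS1.

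HIF1A shares exon sequence with a long non-coding RNA on its own strand and with the antisense genes HIF1A-AS1 and HIF1A-AS3, and whether counting used the strand is not given in the sources used here. Reads of HIF1A and of these partners cannot be told apart to that extent.

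The remaining machinery showed no called gene. Of 13 further genes for beta subunits, hydroxylases, the VHL ligase and co-activators, 11 were tested and none passed 0.01 with limma, whereas at an unadjusted p under 0.05 1 was lower and 1 was higher, shares no larger than the 14.8% and 11.0% of all tested genes. With voom on the recovered reads none passed either, and with weights on the libraries 1 was lower, HIF1AN (log2 difference -0.21, adjusted p = 0.000922). The fit with weights called 21.9% of all tested genes lower, and it warned of incomplete convergence. The gene lower at an unadjusted p was HIF1AN, the asparaginyl hydroxylase that blocks co-activator binding, at 9.56 to 10.2 FPKM in siC and 8.31 to 8.98 FPKM in siImp1 (log2 difference -0.17, adjusted p = 0.124). The higher one was ELOC, a subunit of the VHL ligase, at 9.07 to 10.2 FPKM in siC and 10.6 to 11.4 FPKM in siImp1 (log2 difference 0.23, adjusted p = 0.0727). For both genes the groups did not overlap, and neither reached the threshold. Of the 11 tested, 1 thus lay all below and 1 all above, no more than the 15.1% and 11.9% of all tested genes.

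ARNT was at 9.21 ± 0.944 FPKM in siC (SD, n = 3) and 9.03 ± 0.105 FPKM in siImp1 (SD, n = 4). VHL was at 50.6 ± 2.80 FPKM in the 3 siC libraries (SD) and at 51.3 ± 1.60 FPKM in the 4 siImp1 libraries (SD). EGLN2, the third prolyl hydroxylase, was at 3.39 ± 0.154 FPKM and at 3.26 ± 0.260 FPKM in the same libraries (SD). The ligase subunits ELOB, CUL2 and RBX1, the co-activators EP300 and CREBBP, and CITED2, which competes with HIF for them, also overlapped between the groups. The signs of the small differences of ARNT, EP300 and CREBBP turned with the scaling used. Without siC replicate 3 the signs of VHL, ELOB, RBX1, EP300, CREBBP and CITED2 turned, and none of these was called (adjusted p 0.105 to 0.850, limma). HIF3A and ARNT2 lay under the filter with at most 5 reads and 1 read in a library, so the alpha and beta subunits with measurable transcript in these cells were HIF1A, EPAS1 and ARNT.

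Of the sensors that are also HIF targets, EGLN1 overlapped between the groups and EGLN3 did not. EGLN1, the main prolyl hydroxylase under normal oxygen, was at 14.7, 14.6 and 16.4 FPKM in siC and at 15.0, 13.2, 13.9 and 15.5 FPKM in siImp1. The groups overlapped, with a log2 difference of -0.084 (95% interval -0.27 to 0.10, adjusted p = 0.577, limma), and -0.029 without siC replicate 3 (adjusted p = 0.803). EGLN1 shares exon sequence with another protein-coding gene model on its strand.

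EGLN3, a prolyl hydroxylase known for strong induction by HIF, was at 0.224, 0.144 and 0.188 FPKM in siC and at 0.367, 0.370, 0.349 and 0.492 FPKM in siImp1. All siImp1 libraries lay above all siC libraries, at 2.13 times the mean, on only 19 to 51 reads per library. EGLN3 fell under the filter of 1 FPKM. In a fit without the filter the log2 difference was 0.79 (95% interval 0.22 to 1.37, adjusted p = 0.164, limma), with voom on the recovered reads it was 1.12 (adjusted p = 0.0178), and without siC replicate 3 it was 0.80 (adjusted p = 0.144). None of these passed 0.01.

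Among the targets that act on mitochondria, BNIP3 rose. BNIP3 encodes a protein of the outer mitochondrial membrane that directs mitochondria to autophagy. It was at 30.4, 31.8 and 23.6 FPKM in siC and at 48.6, 46.4, 46.2 and 49.7 FPKM in siImp1, or 1.67 times the control mean. The groups did not overlap, and the spread was wider in siC (SD 4.42 FPKM, n = 3) than in siImp1 (SD 1.71 FPKM, n = 4). The log2 difference was 0.75 (95% interval 0.49 to 1.00, adjusted p = 0.00702, limma).

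Without siC replicate 3, its lowest library, BNIP3 differed by 0.62 (adjusted p = 0.000717). Leaving out any one of the other 6 libraries instead gave log2 differences of 0.73 to 0.83 and adjusted p of 0.0171 to 0.0330, which ended the call while the direction held. The genome carries 39 annotated BNIP3 pseudogene rows in the table, of which 6 held reads, 43 to 122 reads per library over all of them against 1727 to 5425 reads on BNIP3. That share is small, and how reads that fit both were assigned is not given in the sources used here.

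ANKRD37, a small ankyrin repeat gene known as a HIF target, was at 0.497, 0.581 and 0.366 FPKM in siC and at 0.984, 0.847, 0.848 and 0.926 FPKM in siImp1. The groups did not overlap, at 1.87 times the control mean on 13 to 48 reads per library. ANKRD37 was under the filter, and without the filter its log2 difference was 0.80 (95% interval 0.31 to 1.29, adjusted p = 0.104, limma), 0.85 with voom (adjusted p = 0.0525) and 0.65 without siC replicate 3 (adjusted p = 0.0798). It shares exon sequence with the protein-coding UFSP2, which runs on the opposite strand.

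The promoter windows of BNIP3, ANKRD37, EGLN3 and EGLN1 are shown because the first 3 are members whose siImp1 libraries all lay above siC, and EGLN1 is the sensor that overlapped. They are RefSeq windows of 300 bases on build GRCh38.p14, printed 5′ to 3′ on the strand of the gene, and they end 50 bases past the start that RefSeq gives the gene, which can differ from the gene start in the GENCODE annotation used for exon overlaps. Capitals mark the core of the hypoxia response element, searched as ACGTG or GCGTG on both strands, so that a core on the other strand reads CACGT or CACGC. A palindrome CACGTG counts as a core on each strand. BNIP3 lies on the minus strand at chr10:131981874-131982173, ANKRD37 on the plus strand at chr4:185396591-185396890, EGLN3 on the minus strand at chr14:33951025-33951324, and EGLN1 on the minus strand at chr1:231422238-231422537.
BNIP3: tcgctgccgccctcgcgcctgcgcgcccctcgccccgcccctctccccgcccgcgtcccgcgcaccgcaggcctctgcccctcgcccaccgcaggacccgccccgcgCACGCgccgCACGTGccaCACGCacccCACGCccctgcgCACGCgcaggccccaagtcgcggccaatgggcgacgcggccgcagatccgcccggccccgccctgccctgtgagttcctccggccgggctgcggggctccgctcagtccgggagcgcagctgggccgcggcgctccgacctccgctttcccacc
ANKRD37: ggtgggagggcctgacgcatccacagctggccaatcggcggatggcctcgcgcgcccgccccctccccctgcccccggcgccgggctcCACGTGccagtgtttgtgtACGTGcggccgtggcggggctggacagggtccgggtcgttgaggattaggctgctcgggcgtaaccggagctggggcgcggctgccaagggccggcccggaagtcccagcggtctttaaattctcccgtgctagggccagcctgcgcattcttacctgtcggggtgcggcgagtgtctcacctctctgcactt
EGLN3: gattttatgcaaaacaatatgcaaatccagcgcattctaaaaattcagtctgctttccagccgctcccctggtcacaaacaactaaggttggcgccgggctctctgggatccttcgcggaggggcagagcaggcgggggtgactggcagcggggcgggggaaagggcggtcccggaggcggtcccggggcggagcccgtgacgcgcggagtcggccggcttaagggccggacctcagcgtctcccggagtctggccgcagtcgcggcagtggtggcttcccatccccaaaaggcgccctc
EGLN1: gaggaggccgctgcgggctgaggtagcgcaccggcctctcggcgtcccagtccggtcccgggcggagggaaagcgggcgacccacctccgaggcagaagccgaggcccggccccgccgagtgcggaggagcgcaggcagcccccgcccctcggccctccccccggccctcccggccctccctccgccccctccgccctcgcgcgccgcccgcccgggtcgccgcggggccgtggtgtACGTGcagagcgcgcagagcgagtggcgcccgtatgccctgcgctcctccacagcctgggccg

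BNIP3 held 6 core matches at positions -143 to -104 from its start, ANKRD37 held 3 at -162 to -143, EGLN1 held 1 at -13, and EGLN3 held none. In both BNIP3 and ANKRD37, 2 of the matches are the strands of 1 palindrome. EPAS1, CA9, ADM and the first HIF1A window each held 1. A window was found for 8 of the 10 members, and 7 of these held a core (87.5%), 4 of them in the form ACGTG (50%). VEGFA and NDRG1 had no window. Across all 27305 genes with a window 52.4% held a core and 24.9% held ACGTG, and among the 8550 tested genes with a window the shares were 71.1% and 33.0%. The median GC content was 67.3% for members and 64.8% for tested genes, and its part in the share of cores was not tested. A match is a run of letters and not a bound site, and elements further from the start were outside these windows. The siImp1 libraries all lay above siC for BNIP3 and ANKRD37, which held more than 1 match, and for EGLN3, which held none, while all 5 members with 1 match overlapped between the groups. NDRG1, whose siImp1 libraries also all lay above siC, had no window and is missing from this contrast. With so few members no relation of matches to response was tested.

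**Figure D2:**
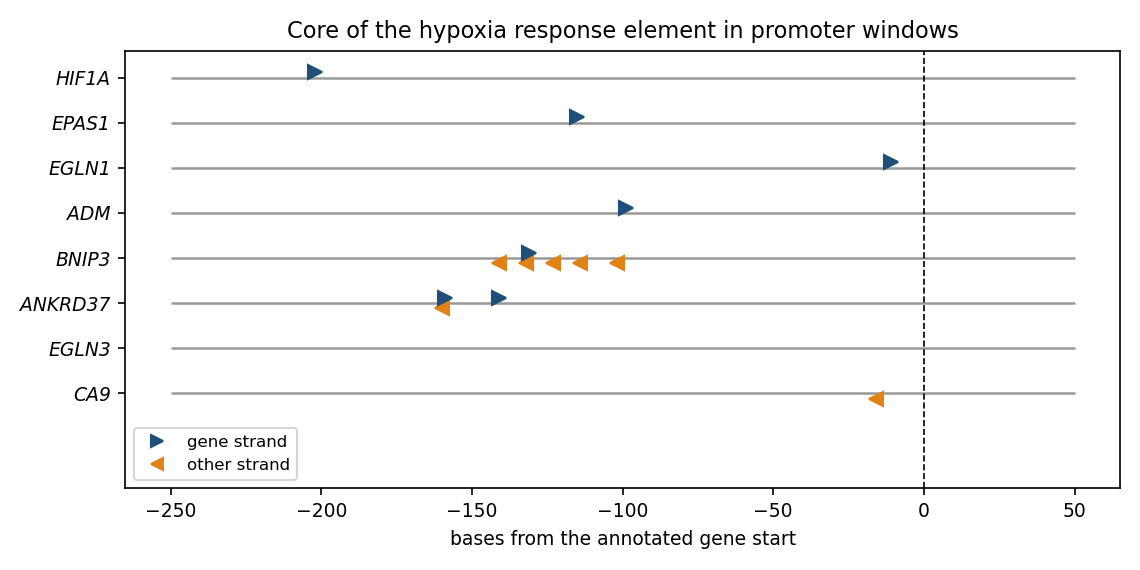
Positions of the core ACGTG or GCGTG in the RefSeq promoter windows of 8 members, in bases from the annotated gene start (dashed line), with blue arrowheads for the strand of the gene and orange ones for the other strand. BNIP3 holds a cluster of 6 matches, ANKRD37 holds 3, and EGLN3 holds none.

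NDRG1, a stress-induced cytoplasmic protein known to be repressed by N-Myc, was at 19.7, 18.8 and 11.8 FPKM in siC and at 32.5, 30.5, 32.6 and 34.8 FPKM in siImp1. The groups did not overlap, and the siImp1 mean was 1.95 times that of siC. NDRG1 had the widest separation in log2 terms of the tested members, 0.99 (95% interval 0.58 to 1.40), but its adjusted p of 0.0143 (limma) missed the threshold. The low value of siC replicate 3, 0.614 times the mean of the other siC libraries, widened its siC spread. Without that library the log2 difference was smaller, 0.76, and the adjusted p was 0.000812, and with voom on all libraries the adjusted p was 0.00546. NDRG1 shares exon sequence with a long non-coding RNA on its strand.

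The secreted targets VEGFA and ADM did not pass the test. VEGFA, the main growth signal for blood vessels, was at 8.44, 7.94 and 6.70 FPKM in siC and at 8.37, 8.26, 9.22 and 9.11 FPKM in siImp1. The groups overlapped, with a log2 difference of 0.19 (95% interval -0.036 to 0.41, adjusted p = 0.269, limma), and 0.092 without siC replicate 3 (adjusted p = 0.370). A doubling lies outside either interval.

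ADM, which encodes the vasodilator peptide adrenomedullin, was at 4.90, 4.01 and 3.26 FPKM in siC and at 5.01, 5.41, 6.19 and 4.54 FPKM in siImp1. Only siImp1 replicate 4 fell below the highest siC library. The log2 difference was 0.38 (95% interval 0.0098 to 0.76, unadjusted p = 0.0456, adjusted p = 0.183, limma). It was 0.24 without siC replicate 3 (adjusted p = 0.267), and weights on the libraries gave 0.37 with an adjusted p of 0.00763, past the threshold. That fit called 14.6% of all tested genes higher and 21.9% lower, so its calls are read against a far wider background.

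CA9, the cell surface carbonic anhydrase used as a marker of hypoxic tumour tissue, was close to absent. It was at 0.0823, 0.0561 and 0.261 FPKM in siC and at 0.264, 0.160, 0.271 and 0.138 FPKM in siImp1, on 3 to 8 reads per library. The groups overlapped, and a difference in CA9 was not detectable at this depth (log2 difference 0.48 without the filter, 95% interval -0.39 to 1.34, adjusted p = 0.615, limma). Without siC replicate 3, its highest siC library, the log2 difference was 0.84 (95% interval 0.14 to 1.55, adjusted p = 0.165), and with voom on all libraries it was 1.06 (adjusted p = 0.344). None of these passed 0.01. CA9 shares exon sequence with the protein-coding ARHGEF39, which runs on the opposite strand.

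Counted together, 7 of the 10 members passed the filter, and 1 of them, BNIP3, was called higher, in a comparison in which 1.65% of all tested genes were called higher. No member was called lower, against 2.28% of all tested genes, and at an unadjusted p under 0.05 none was lower and 3 were higher (BNIP3, NDRG1 and ADM), against 14.8% and 11.0% of all tested genes. Without siC replicate 3, BNIP3 and NDRG1 were called higher against 3.59% of all tested genes, and with voom on the recovered reads the same 2 members were called against 2.38%. All siImp1 libraries lay above all siC libraries for 4 of the 10 members (BNIP3, NDRG1, ANKRD37 and EGLN3), of which 2 were tested, and this held for 11.9% of tested genes. No member had all siImp1 libraries below, a pattern found in 15.1% of tested genes. The members were chosen with earlier results of these data known, so the counts are no independent evidence of a direction. With so few members these counts describe the members one by one, and the plot of differences gives each with its interval.

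**Figure D3:**
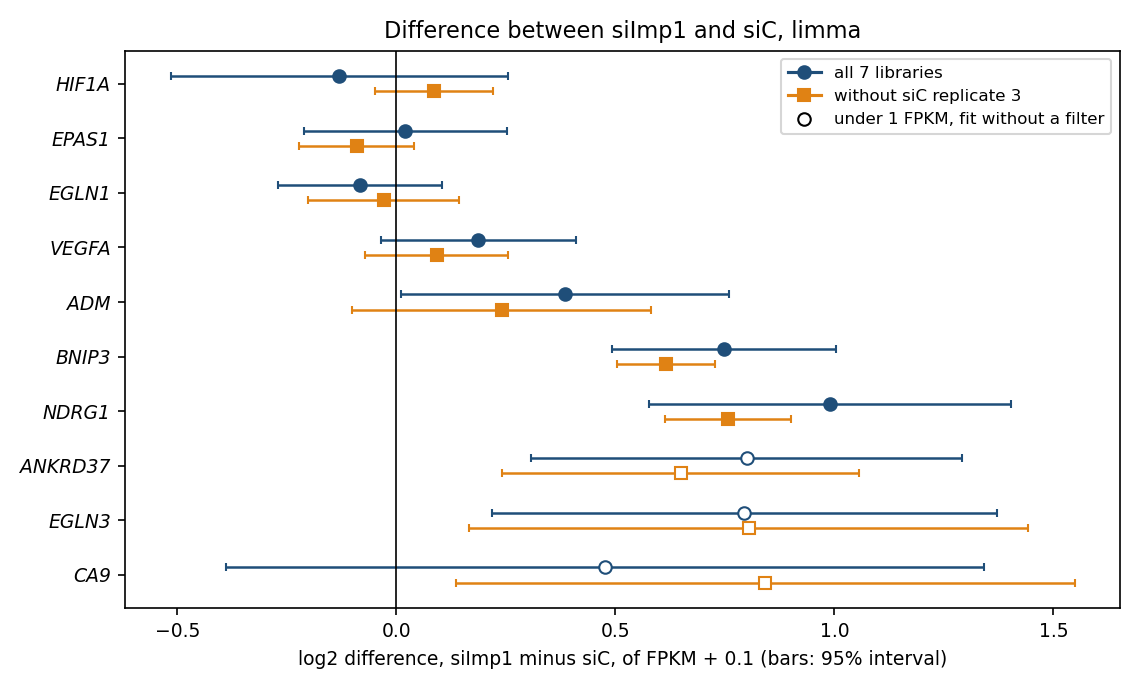
Log2 difference of siImp1 minus siC for each member with its 95% interval from limma, over all 7 libraries (blue circles) and without siC replicate 3 (orange squares), with open symbols for the 3 members under 1 FPKM, which come from a fit without a filter. HIF1A and EPAS1 change sign without that library, and the intervals of BNIP3, NDRG1, ANKRD37 and EGLN3 lie above 0 in both fits.

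A wider list of HIF targets was read beside the members. It holds 65 further genes sorted by role, of which 52 were tested. The list was set with earlier results of these data known and is no independent evidence of a direction. In these, 12 genes were called higher and 1 lower, where 1.65% of all tested genes were called higher and 2.28% lower. A log2 difference above 0 was found in 46 of the 52 and in 47.1% of all tested genes. The median log2 difference was 0.35, against -0.017 over all tested genes. Without siC replicate 3 the median was 0.25, 23 were called higher (against 3.59% of all tested genes) and 1 lower, and 43 were above 0 (against 45.5%). All siImp1 libraries lay above all siC libraries for 29 of the 52 (against 11.9% of all tested genes), and below for 2, ERO1A and TFRC, the latter, the transferrin receptor, named after its values were seen.

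The widest difference on the list was that of a secreted target. EPO, the hormone of red cell formation and a classical HIF target of liver cells, was at 1.136, 1.97 and 1.47 FPKM in siC and at 8.46, 6.94, 5.96 and 6.02 FPKM in siImp1, or 4.48 times the control mean on 27 to 204 reads per library. Its log2 difference was 2.11 (SE 0.20, adjusted p = 0.00147, limma). IGFBP3, a carrier of insulin-like growth factors, rose by 0.79. These were 2 of 5 tested secreted targets beside VEGFA and ADM, and none of the 5 was called lower. Without siC replicate 3, 3 of the 5 were called higher (against 3.59% of all tested genes), with STC2 added (named after its values were seen).

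Of 18 tested targets for glucose use, 5 rose and none was called lower. All 18 log2 differences were above 0 over all libraries, and 15 were above 0 without siC replicate 3, with TPI1 at -0.084, PGAM1 at -0.010 and GYS1 at -0.070 (named after their values were seen). The group median was 0.38 over all libraries and 0.23 without that library. The 5 that rose were PFKFB4 (log2 difference 1.17), which sets the level of an activator of phosphofructokinase, SLC16A3 (1.17), the lactate exporter, PDK1 (1.07), which inhibits pyruvate dehydrogenase, LDHA (0.61), the subunit of lactate dehydrogenase that favours lactate, and PGK1 (0.49), a glycolytic kinase. LDHA was the most abundant of the 5, at 132 ± 3.25 FPKM in siC (SD, n = 3) and 202 ± 7.15 FPKM in siImp1 (SD, n = 4). The other 13 did not pass the test over all libraries, and the widest of these was ALDOC (1.34, adjusted p = 0.0182, limma). Without siC replicate 3, 8 of the 18 were called higher (against 3.59% of all tested genes), with ALDOC, PFKFB3 and SLC2A1 added. ALDOC, PFKFB3 and SLC2A1 were named after their values were seen.

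Among regulators, DDIT4, an inhibitor of mTOR signalling, rose from 16.3 ± 3.32 FPKM (SD, n = 3) to 43.7 ± 3.19 FPKM (SD, n = 4), a log2 difference of 1.44. BHLHE40, a repressor also tied to the circadian clock, rose by 0.93 and MXI1, an antagonist of MYC, by 0.87. ERO1A, the oxidase that forms disulfide bonds in the endoplasmic reticulum, was the 1 gene of the list called lower, at 12.2 ± 1.67 FPKM in siC (SD, n = 3) and 7.40 ± 0.533 FPKM in siImp1 (SD, n = 4), a log2 difference of -0.71. Of 10 tested regulators beside ANKRD37 and NDRG1, 3 were called higher and 1 lower. Without siC replicate 3, 5 were called higher (against 3.59% of all tested genes) and 1 lower, with INSIG2 and TMEM45A added (named after their values were seen).

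In the matrix group P4HA1, a collagen prolyl hydroxylase, rose by 0.85 and was 1 of 5 tested. In the iron group CP, the ferroxidase ceruloplasmin, rose by 0.64 and was 1 of 4. Without siC replicate 3 the matrix calls were 3 of 5, with PLOD2 and LOX, and the iron calls 2 of 4, with TF. That fit called 3.59% of all tested genes higher. No call was made over all libraries among the 5 tested mitochondrial targets beside BNIP3, while without siC replicate 3 BNIP3L, a mitophagy receptor related to BNIP3 (0.74, adjusted p = 0.00265), and AK4, a mitochondrial adenylate kinase (0.74, adjusted p = 0.000722), were called higher, and voom called BNIP3L (adjusted p = 0.00574). BNIP3L, AK4, PLOD2, LOX and TF were named after their values were seen. The siC replicate 3 was the highest siC library for BNIP3L, AK4 and PLOD2, and leaving it out widened their differences. For LOX and TF it was the lowest, and their differences narrowed. No call was made among the 2 pH regulators beside CA9, or the 3 chromatin demethylases listed with EGLN1 and EGLN3. The calls of each role over all libraries stand against 1.65% of all tested genes called higher and 2.28% called lower. Differences in calls between roles were not tested.

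**Figure D4:**
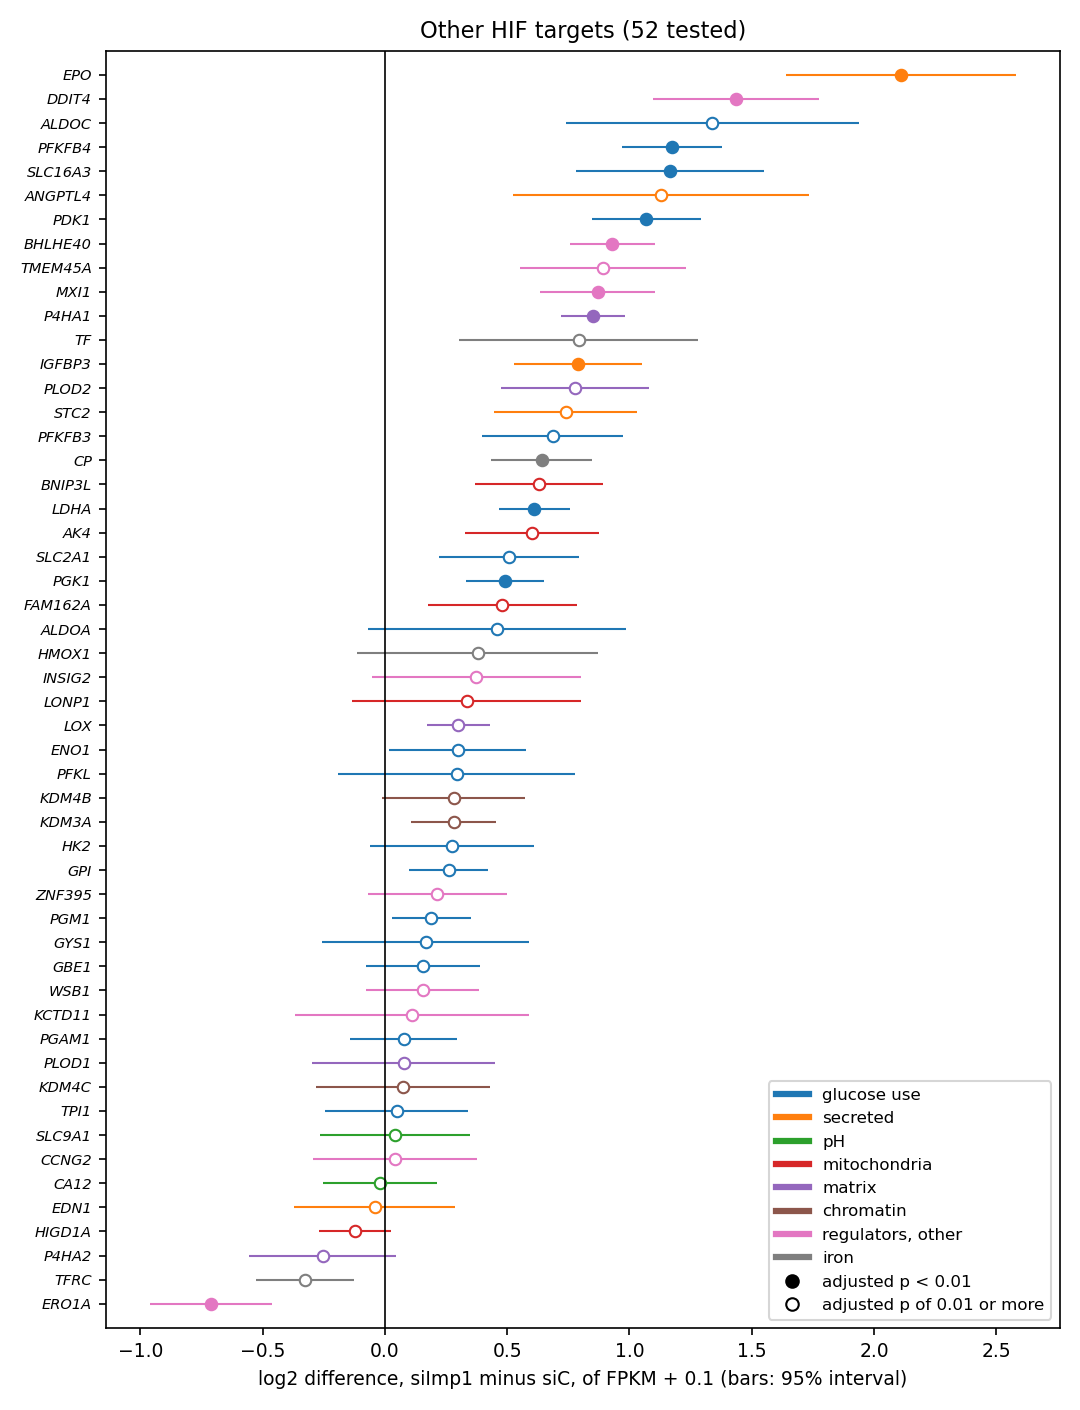
Log2 difference of siImp1 minus siC with its 95% interval (limma) for the 52 tested further HIF targets, coloured by role, with filled circles for an adjusted p under 0.01. EPO and DDIT4 lie farthest to the right at 2.11 and 1.44, and ERO1A lies farthest to the left at -0.71.

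The calls on this wider list differed in how many of the fits with 1 library left out they passed. EPO, PFKFB4, PDK1, P4HA1 and BHLHE40 passed 0.01 with each of the 7 libraries left out in turn. DDIT4 passed in 4 of the 7 fits, and MXI1 and LDHA in 2. SLC16A3, IGFBP3, CP, PGK1 and ERO1A passed in 1, the fit without siC replicate 3. With that library left out all 12 higher calls remained, and with any one of the other libraries left out 5 to 7 of the 12 did. In those latter fits the number of higher calls over all tested genes was 66 to 86, against 245 over all libraries. A lost call therefore need not mean that the gene rested on the library left out. In all 12 the siImp1 libraries lay above the siC libraries, and for ERO1A they lay below. Over all tested genes the shares were 11.9% above and 15.1% below. The called genes were picked by the test on the same libraries, so this separation is no further support for the calls.

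The promoter windows of this list also held the core often. It was in 49 of the 53 genes with a window (92.5%), in 11 of 11 of those called higher (100%) and in 33 of 36 tested genes not called higher (91.7%). The share over all tested genes was 71.1%. The median GC content of the list was 68.0%, its part in these shares was not tested, and differences between the shares were not tested.

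**Figure D5:**
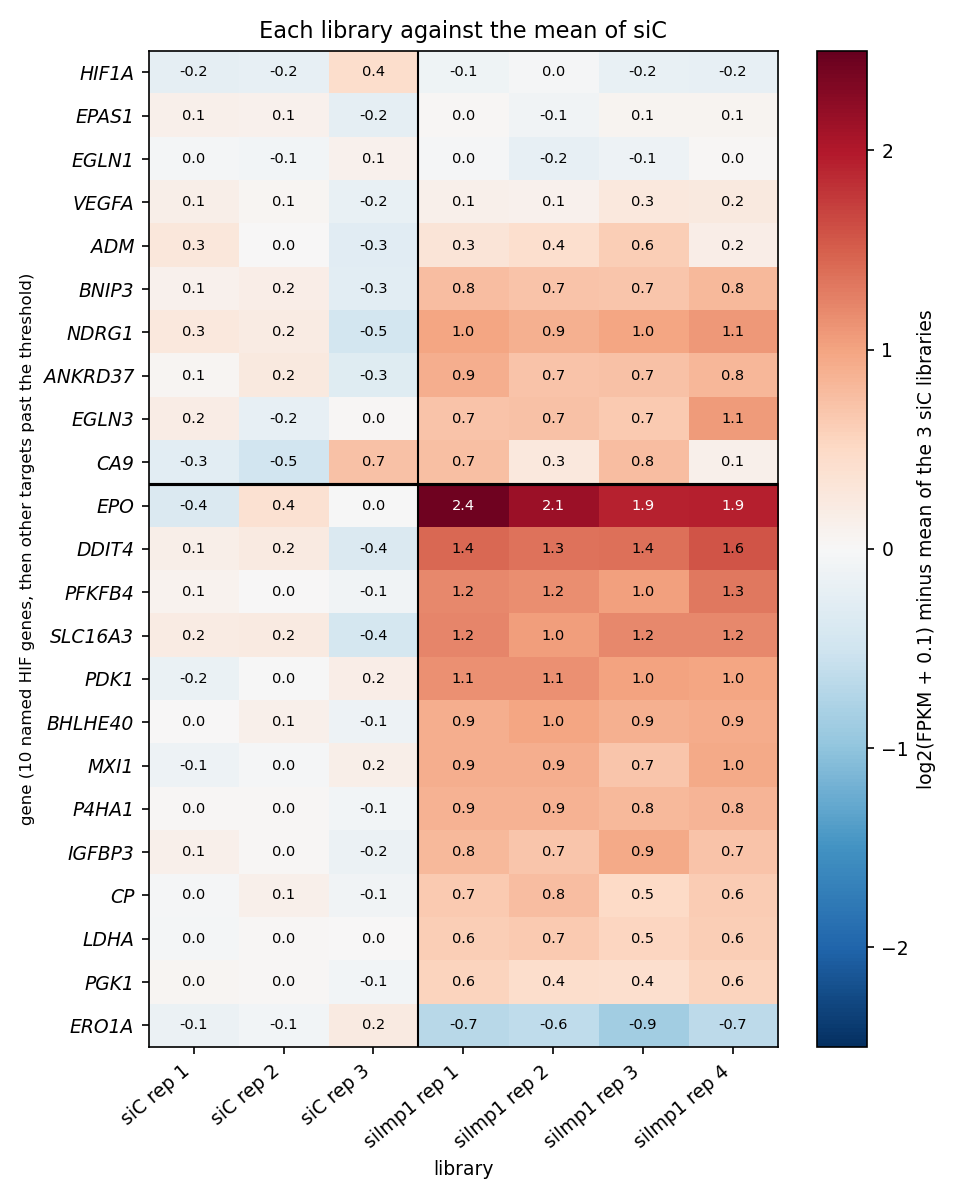
Difference of each library from the mean of the siC libraries, on the log2(FPKM + 0.1) scale, for the 10 members (above the line) and for the 13 further HIF targets that were called (below it), with red for higher and blue for lower. HIF1A, EPAS1 and EGLN1 stay pale in all siImp1 libraries, BNIP3, NDRG1, ANKRD37 and EGLN3 are red in each siImp1 library, and ERO1A is the blue row.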

How the data were processed

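RNA was depleted of ribosomal RNA and sequenced from strand-aware libraries. Following the study's methods and the submitters' processing notes, the authors trimmed reads with Cutadapt 1.14, aligned them to GRCh38 with HISAT2 2.1.0, counted them per Ensembl gene with featureCounts 1.5.3 and tested genes with edgeR 3.18.1. Strand assignment in counting is not given in the sources used here. The authors deposited FPKM values per gene and library, scaled by TMM library sizes, with a gene length, and also their own fold changes, p-values and FDR, which were not used. Values times length were whole multiples of 1 read for 100% of values examined (tolerance 0.05), which gave reads and depth. No column lay outside the labels.

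Groups and replicate numbers came from the sample titles. The labels do not say that libraries came from separate cultures, so p-values measure the spread between these libraries, which may be technical. No pair within a group agreed within sampling noise. The test was limma 3.58.1 (R 4.3.3) on log2(FPKM + 0.1), which understates changes of low genes, with the variance trended on mean level, two-sided, without covariates, at the study's threshold of 0.01. It was tested on simulated data. Alternatives were another pseudocount, filter, scaling, variance model or threshold, voom on recovered reads, a replicate block and leaving out each library. Fits without the filter by voom or without siC replicate 3 were added after seeing the data.

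The members and gene lists were chosen with earlier results of these data known. Named genes are all members, IGF2BP1 and SRF, all listed machinery genes and each listed target past 0.01. TFRC, P4HA2, HIGD1A, TPI1, PGAM1, GYS1, ALDOC, PFKFB3, SLC2A1, STC2, INSIG2, TMEM45A, BNIP3L, AK4, PLOD2, LOX, TF and the markers TTR, FGB and PECAM1 were named after their values were seen. Some listed genes are not reported here and were left out of the list counts. Exon overlaps are from GENCODE on GRCh38, and promoters are RefSeq windows on GRCh38.p14.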

Additional observations from a re-analysis of the deposited data

Results flagged for a closer look

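In the 4 siImp1 libraries, 6 of the 37 genes examined had 1 library far from the others, measured as the gap to the nearest library over the whole range. Chance flags about 1 in 20 such groups. EGLN3 had a value of 0.854, with siImp1 replicate 4 highest at 0.492 FPKM against at most 0.370 in the others, all on few reads. For SLC16A3 the value was 0.844. Among the machinery it was 0.928 for HIF3A, which rests on at most 5 reads per library, 0.894 for ARNT, 0.893 for EP300 and 0.829 for ELOC. The siC group, with 3 libraries, was not examined in this way.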

How the results depend on the processing

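The differences of HIF1A and EPAS1 turned sign: HIF1A was at -0.13 over all libraries, 0.060 with weights on the libraries, 0.086 without siC replicate 3 and -0.25 to 0.086 with any 1 library left out, and EPAS1 was at 0.020, -0.062, -0.091 and -0.091 to 0.082. The other tested members kept their direction under each alternative run. Members called higher (1 over all libraries) were 0 without the filter, 0 without the variance trend, 3 with weights on the libraries (BNIP3, NDRG1 and ADM), 2 with voom on the recovered reads, 2 at a threshold of 0.05, 2 at 0.05 without siC replicate 3, and 0 to 2 with 1 library left out. Of the further targets, 12 were higher and 1 lower. Higher calls were 30 with weights, 22 at 0.05, 28 at 0.05 without siC replicate 3, and 5 to 23 with 1 library left out. Lower calls were 0 without the filter, 0 with quantile normalization, 0 without the trend, 4 with weights (ERO1A, TFRC, P4HA2 and HIGD1A), 3 at 0.05 without siC replicate 3 (ERO1A, TFRC and P4HA2), and 0 to 1 with 1 library left out. Of the further machinery, 1 gene, HIF1AN, was lower with weights and 0 genes were called otherwise. The cause of these moves was not tested, beside the fewer libraries in fits that leave 1 out. Over all 14839 genes, 245 were higher and 338 lower, against 2169 and 3245 with weights (a fit that warned of incomplete convergence), 703 and 1010 at 0.05, 1393 and 2333 at 0.05 without siC replicate 3, and 53 to 990 per direction with 1 library left out.

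With the replicate number as a block, 0 members, 0 further targets higher or lower and 0 genes over the whole table were called, and BNIP3 was at 0.73 (adjusted p = 0.142). The replicate block uses the 3 numbers shared by both groups, and same-numbered libraries did not deviate together (correlations 0.0037, -0.11 and -0.15). These are deviations from means of 3 libraries, with siC replicate 3 far from the rest. They cannot decide whether the numbers pair libraries, and the labels do not say so. Scaling moved the median of all genes little (-0.017 as deposited, 0.012 after median centring). Depth limits CA9, EGLN3 and ANKRD37, with 3 to 51 reads per library.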
